A study of Mus musculus with 3 samples.

Results

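Müller glia with a high level of Ndufa4l2, the members described here, were 1355 of 25237 retinal cell barcodes that passed the filters. A member is a barcode that carries a set of Müller genes and an Ndufa4l2 level of at least 500 CPM (counts per 1000000 of the barcode's own reads). The members were therefore chosen by their measured Ndufa4l2, and that gene and the 8 Müller genes of the rule are described below without being counted as findings. All 3 groups were retinas of mice at postnatal day 26 (P26), namely wild type (WT), knockout of Tspan12 (KO), and the same knockout given F4L5.13 (called treated). The labels give all 3, the wild type included, the same strain entry, Tspan12tm1.2Hjug. That entry does not settle which alleles the wild type carries, and the labels name no Cre or cell-restricted promoter. Treated animals were injected intraperitoneally with F4L5.13, first on P6, P9 and P12 with 10 mg/kg each time and from then on with 4 mg/kg at intervals of 3 days. Each group is 1 library, and how many animals it holds is not stated in the labels, so no test between groups was possible and none was made from cells. Photoreceptors and dying cells had been depleted with beads (anti-CD73 and Annexin V) before capture, per the labels' protocols.

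Müller glia span the whole depth of the retina, take up glutamate and potassium around neurons, and supply them with lactate. They are a main source of VEGF in the retina, and they release it when hypoxia-inducible factors (HIF) are no longer broken down for want of oxygen. Tspan12 encodes a tetraspanin that assists Norrin signalling through FZD4 and LRP5 in retinal endothelium, without which the deeper retina is poorly vascularised, and F4L5.13 is an antibody that activates the same receptor pair. NDUFA4L2 is a HIF-induced mitochondrial protein related to NDUFA4, a subunit of cytochrome c oxidase, and it is known to lower respiratory chain activity in hypoxic cells. Its gene Ndufa4l2 lies on chr10:127514967-127517154 of GRCm38, plus strand (GENCODE M21), which is the build named for these files under its other name, mm10.

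The deposited values behaved like reads, several of which can come from the same molecule. The level of a gene in a set of barcodes is its summed reads as CPM of all reads summed over the set. Intervals are 95% counting intervals computed after dividing the reads by 2.73 (WT), 2.76 (KO) or 3.16 (treated), a factor by which low values clumped within barcodes, and the quotient is called molecule equivalents. These intervals hold counting error only and say nothing of the spread between animals. Kept barcodes numbered 6081 (WT), 10239 (KO) and 8917 (treated). In the same order, median depths were 20500.5, 28248 and 24824 reads in the members and 19573, 30206 and 24747 in the other Müller barcodes. No member barcode sequence occurred in more than 1 library. Tspan12 reads were still present in KO Müller barcodes, at 28.6 CPM against 44.2 in WT and 24.6 in treated. The labels do not say which exons the allele lacks, and a 3′ tag outside the deleted stretch cannot check the genotype.

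High Ndufa4l2 was the state of most Müller barcodes in the KO library and of few in the others. Members were 102 of 1735 Müller barcodes in WT (5.88%, exact binomial interval 4.82 to 7.09%), 1130 of 1497 in KO (75.5%, 73.2 to 77.7%) and 123 of 1249 in treated (9.85%, 8.25 to 11.6%). These intervals hold the counting of barcodes in 1 library each and set no difference between conditions. Among the members themselves the median was 801.5 CPM of Ndufa4l2 in WT, 1766 in KO and 868 in treated, so KO members also sat further above the level that chose them. No read of Ndufa4l2 was seen in 72.6% of WT, 5.81% of KO and 56.0% of treated Müller barcodes. The level falls in a continuous range and not in a gap: the lowest members had 501.5, 504.2 and 512.5 CPM, and the highest Müller barcodes below the level had 494.5, 496.5 and 496.4. In bipolar barcodes, neurons that should lack the gene, 1 of 1839 (WT), 2 of 1443 (KO) and 0 of 1750 (treated) reached 500 CPM, at median depths of 12337, 12795 and 14331 reads. Bipolar barcodes had at least 10 reads over Trpm1 and Grm6, and fewer than 2 of the 8 rule genes at 3 or more reads. Barcodes with more Müller reads were thus left out, so this set cannot show how often background reads reach the level. Of all barcodes outside the Müller rule, 1.08% (WT), 2.36% (KO) and 0.626% (treated) reached it.

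**Figure D1:**
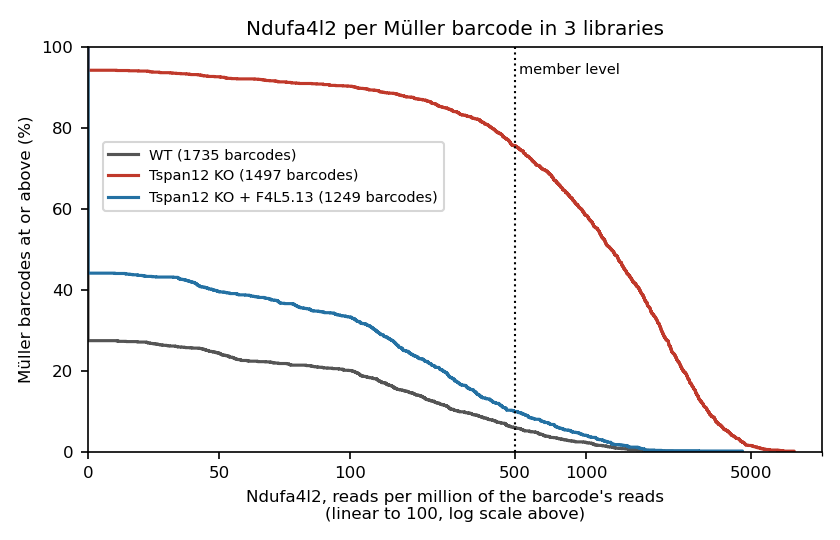
Percentage of Müller barcodes (y axis) at or above each level of Ndufa4l2 (x axis, CPM of the barcode, linear to 100 and on a log scale above), 1 line for each library, with the level of 500 that chose the members dotted. At that level the KO line stands at 75.5%, the treated line at 9.85% and the WT line at 5.88%.

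The Müller label was described with 20 further Müller markers that the rule did not use. They summed to 55022.1 CPM in WT, 52737.8 in KO and 51710.4 in treated members, against 1440, 1182 and 1362 in bipolar barcodes, with all 20 higher in members of each library. Bipolar barcodes were chosen to hold few rule genes, so a difference was built in. The contrast with these neurons cannot separate Müller glia from other glia. The rule genes themselves are high by selection and are given as levels. Rlbp1, the retinal-binding protein gene of Müller glia, stood at 3357 CPM in WT members, 3271 in KO members and 2981 in treated members, against 12.3, 10.6 and 5.79 in bipolar barcodes. Aqp4, the water channel of glial endfeet, was at 579.5, 698.2 and 467.7 CPM, and Slc1a3, the glial glutamate transporter, at 920.8, 1023 and 854.1. Of the 20 markers outside the rule, 12 lay above and 8 below the other Müller barcodes in WT, 14 above and 6 below in KO, and 16 above and 4 below in treated. Oxygen was not measured, and the members were chosen by a HIF-induced gene. The genes described next therefore cannot show that the members were hypoxic, and HIF targets among them differed in both directions.

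Promoter sequence is shown for 3 secreted factors that are known HIF targets. The 250 bases upstream of the RefSeq start (GRCm38.p6) are printed for adrenomedullin, apelin and Vegfa, which act on vessels and had higher levels in KO members, in the direction of transcription. Capitals mark the core of the HIF binding motif, ACGTG or GCGTG, searched on both strands, so that it can also read CACGT or CACGC.
Adm, chr7:110627407-110627656, plus strand: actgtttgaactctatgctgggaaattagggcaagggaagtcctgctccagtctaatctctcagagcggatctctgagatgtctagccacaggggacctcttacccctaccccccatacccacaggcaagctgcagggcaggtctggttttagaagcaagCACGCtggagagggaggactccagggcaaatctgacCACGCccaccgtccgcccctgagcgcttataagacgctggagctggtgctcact
Apln, chrX:48034854-48035103, minus strand: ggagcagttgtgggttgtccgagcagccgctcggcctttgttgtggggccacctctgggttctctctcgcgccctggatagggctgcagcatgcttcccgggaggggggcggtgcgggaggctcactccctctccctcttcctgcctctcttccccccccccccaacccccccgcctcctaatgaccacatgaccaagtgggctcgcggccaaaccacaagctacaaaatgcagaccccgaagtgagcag
Vegfa, chr17:46032378-46032627, minus strand: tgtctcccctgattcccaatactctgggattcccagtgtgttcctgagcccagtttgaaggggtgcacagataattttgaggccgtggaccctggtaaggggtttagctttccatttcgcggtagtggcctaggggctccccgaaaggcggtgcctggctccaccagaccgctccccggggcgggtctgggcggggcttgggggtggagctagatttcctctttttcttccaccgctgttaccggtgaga
The core motif was found 2 times in the window of Adm and was not found in the printed windows of Apln and Vegfa. A further RefSeq start of Vegfa, inside the gene, has 2 matches in its window. The short core is common: 38.6% of all 32851 promoter windows hold it, and 56.3% of the 11619 windows of genes with at least 30 molecule equivalents in KO Müller barcodes. Counted by gene, 41.5% of all genes and 63.0% of those expressed genes hold it in a window. Of the genes called higher in KO members (the rule is given below) that have a window, 9 of 16 held it, and of the genes called lower, 16 of 40, both below the share of expressed genes. Among listed secreted HIF targets 7 of 9 genes held it and among glycolysis genes 21 of 25. A match is a description of the letters and not a binding site.

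KO members had higher levels of secreted vascular factors than the other 367 KO Müller barcodes. Adm, which encodes the vasodilator peptide adrenomedullin, stood at 149.3 CPM in members and 48.8 in the others, a ratio of 3.06 (2.66 to 3.54). Apln, which encodes apelin, the ligand of an endothelial receptor that guides vessel growth, stood at 136.5 against 53.1 CPM, a ratio of 2.57 (2.24 to 2.95). Vegfa, the principal endothelial growth factor, stood at 467.3 against 250.2 CPM, a ratio of 1.87 with an interval of 1.8 to 2.0, just short of 2-fold. Lgals3, which encodes the lectin galectin-3, had 101.8 against 47.5 CPM. Of the secreted HIF targets, 9 of 12 were measurable, meaning that at least 10 molecule equivalents were expected in the smaller set, and 6 of these 9 lay above the other Müller barcodes with a median log2 ratio of 0.90. The median over all 13795 measurable genes was -0.06. Vegfb and Pgf, which encode other ligands of the VEGF family, were at 1.26 and 0.99 of the other barcodes' level, and Edn1, which encodes endothelin 1, was at 3.29 against 4.94 CPM.

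A gene was called when its CPM ratio was at least 2 in either direction, the higher set held at least 30 molecule equivalents, the interval bound nearest 1 lay beyond 1.5, and 5 barcodes held no more than 50% of its reads in the higher set. Within the KO library 21 of 12306 genes (0.171%) were called higher in members and 56 (0.455%) lower. The counts were 6 and 4 without barcodes that hold markers of another type, and 4 and 13 with members at 500 to 1000 CPM, both from fewer barcodes. Secreted HIF targets supplied 3 of the 21, namely Adm, Apln and Lgals3. Because the members were chosen by a gene of the same response, these counts describe them and test nothing. The difference in Adm and Apln was also a difference in how many barcodes held a read. With every barcode thinned to 5000 reads, which left out 5 of the other Müller barcodes and no member, Adm was seen in 31.2% of KO members (28.5 to 34.0%) and 15.2% of the others (11.7 to 19.3%), and Apln in 43.0% (40.1 to 45.9%) and 21.6% (17.4 to 26.2%). In KO bipolar barcodes each was seen in 0.211%. Without thinning, 600 of 1130 members and 128 of 367 others had a read of Adm.

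Nuclear genes of mitochondrial proteins differed in both directions. Ndufa4, whose product NDUFA4L2 resembles, stood at 685.9 CPM in KO members and 905.4 in the other KO Müller barcodes (ratio 0.76, 0.73 to 0.79). Without barcodes that hold markers of another type, Ndufa4 was at 362.5 against 410.7 CPM (ratio 0.883), and the interval of 0.778 to 1.004 reached 1. The ratio of Cox4i2 was 1.31 (1.22 to 1.40) in that setting. Over all KO Müller barcodes Cox4i2, the hypoxic isoform of a cytochrome oxidase subunit, stood at 1331 against 869.1 CPM (ratio 1.53, 1.5 to 1.6). Its constitutive counterpart Cox4i1 was at 1229 against 1184. Fam162a, a HIF target at the mitochondrion, was at 760.3 against 382.2 CPM, a ratio of 1.99 that missed the call. The mitophagy receptor genes Bnip3 (59.4 against 38.8 CPM) and Bnip3l (374.2 against 291.7) were higher by ratios of 1.53 and 1.28. None of the 10 measurable genes in this list of respiratory chain tuning and mitophagy was called, 7 lay above and 3 below, and the median log2 ratio was 0.18. Nuclear genes of oxidative phosphorylation lay mostly below: 20 of 25, with a median of -0.07 beside -0.06 over all genes.

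Glycolysis genes were mostly higher in KO members, each by little. Of 26 measurable genes of glycolysis, glucose entry and lactate, 21 lay above the other KO Müller barcodes and 5 below, with a median log2 ratio of 0.21 and no gene called. Examples were Slc16a1, the monocarboxylate carrier MCT1 (200.0 against 133.2 CPM), Pfkp, a phosphofructokinase (648.7 against 495.8), Slc2a1, the glucose transporter GLUT1 (515.6 against 406.8), and Tpi1 (986.9 against 774.6). The hexokinase genes Hk1 and Hk2 were lower, at ratios of 0.79 and 0.85. Eno1 and Ldha, classical HIF targets, were at 1.02 and 1.04. Gapdh and Pgk1 were counted at only 24.2 and 70.4 CPM in KO members, and since reads that also match processed copies may have been divided among them, their values are uncertain.

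Genes of the HIF machinery itself differed little. Hif1a was at 121.3 CPM in KO members against 153.1 in the others and Epas1, the gene of HIF-2α, at 128.3 against 122.9. Of the oxygen-sensing prolyl hydroxylases, Egln1 and Egln2 were at ratios of 0.96 and 0.97, and Egln3, itself induced by HIF, was at 11.8 against 6.53 CPM (ratio 1.80, 1.2 to 2.8). Over the 11 genes of this list the median log2 ratio was -0.04. Among 21 other measurable HIF targets 14 lay above and 7 below with none called, and Ndrg1, often used as a hypoxia gene, was at 46.8 CPM in members against 66.0 in the others.

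**Figure D2:**
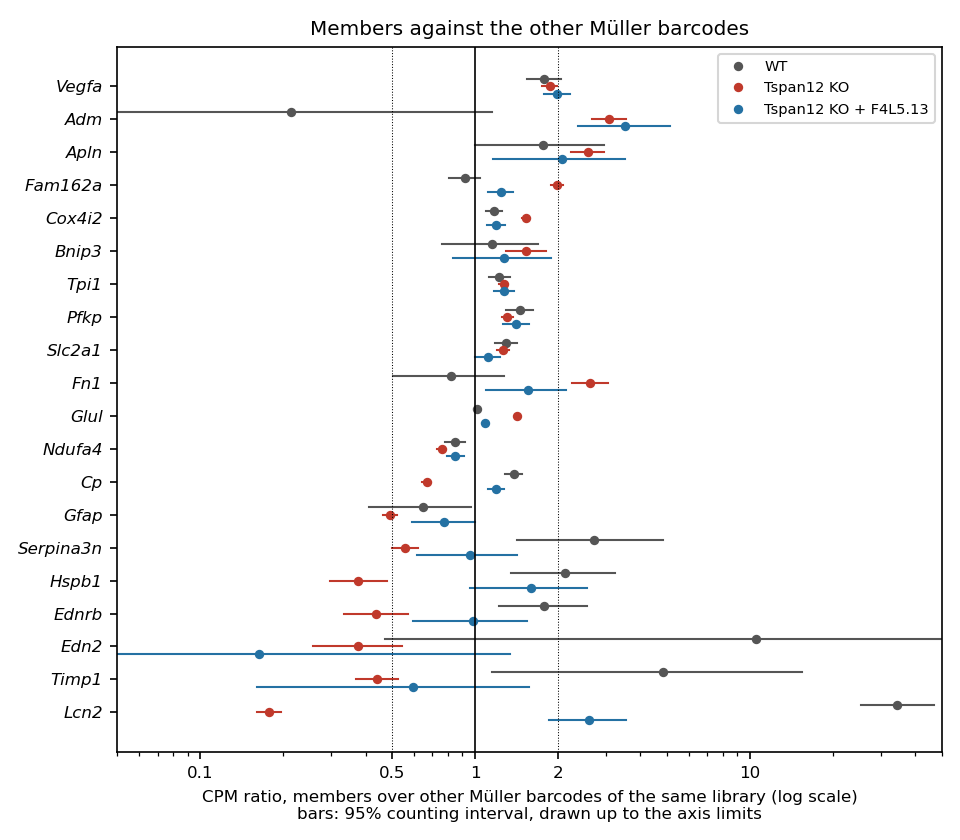
CPM ratio of members over the other Müller barcodes of the same library (x axis, log scale) for 20 genes (y axis), with points for WT, KO and treated and bars for the 95% counting interval; dotted lines mark 2-fold in either direction. Vegfa lies near 1.8 to 2.0 in all 3 libraries, while Lcn2 lies at 0.178 in KO and at 34.4 in WT. The Lcn2 reads of WT members came from 4 barcodes, and the gene was not called there.

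Other genes called higher in KO members had no list in common. Fn1, which encodes the matrix protein fibronectin, was at 109.5 against 41.9 CPM (ratio 2.61) and had reads in 699 members. Neurog2, a proneural transcription factor gene, was at 25.9 against 9.56 CPM with reads in 314 members, and Stmn4, a stathmin gene, at 39.2 against 15.8. Low genes led the order of ratios: Ghrh, the gene of growth hormone-releasing hormone, at 8.21 against 1.51 CPM in 68 members, Hrk, a pro-apoptotic BH3 gene, at 6.87 against 1.51, and Tesc, a calcium-binding protein gene, at 10.8 against 3.27. Megf6 (17.5 against 6.45), Steap1 (15.9 against 6.06), G0s2, an inhibitor of triglyceride lipase (16.5 against 6.61), and Grb14, an adaptor of the insulin receptor (15.5 against 6.37), complete the 12 largest ratios among genes eligible for naming. Without barcodes that hold markers of another type, the ratio intervals of Ghrh (0.913 to 9.64), Hrk (0.816 to 61.4), Tesc (0.691 to 7.53) and Megf6 (0.75 to 3.46) held 1. Those of Neurog2 (2.59 to 40.5) and Fn1 (1.14 to 2.01) did not. Thinned to 5000 reads, Fn1 was seen in 31.5% of members and 14.6% of the other Müller barcodes but also in 17.4% of bipolar barcodes, a background against which its share in members has to be read. Glul, which encodes glutamine synthetase, was at 6878 against 4826 CPM, and at 8222 against 6843 without barcodes that hold markers of another type.

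Reactive-glia genes went the other way in the KO library. Of 27 measurable gliosis genes, 22 lay below the other KO Müller barcodes and 5 above, with a median log2 ratio of -0.46, and 6 were called lower against 0.455% of all genes. Lcn2, the acute-phase lipocalin, was at 48.6 CPM in members and 273.3 in the others (ratio 0.178, 0.161 to 0.196). Gfap, the intermediate filament by which reactive Müller glia are usually recognised, was at 205.1 against 419.0 (ratio 0.49, 0.46 to 0.52). Timp1, an inhibitor of metalloproteinases, was at 23.1 against 52.4, Edn2, the endothelin released in photoreceptor stress, at 4.89 against 13.1, Hspb1, a small heat-shock protein gene, at 11.7 against 31.2, and Ednrb, the endothelin B receptor gene, at 9.76 against 22.4. Vim and Cebpd, at ratios of 1.08 and 1.14, and Nes, at 1.39, were among the 5 above. A read of Gfap was seen in 537 of 1130 members and 204 of 367 others, and a read of Lcn2 in 81 and 71. Thinned to 5000 reads, Lcn2 was seen in 3.72% of members, 13.3% of the others and 0.422% of bipolar barcodes.

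Reads of other cells moved with this result. The sum of 10 cone markers was 2150 CPM in KO members and 3612 in the other KO Müller barcodes, and that of 10 rod markers 9400 and 12844.4, with all 10 markers of each lower. Mural markers summed to 269.3 and 408.1 CPM and microglial markers to 24.0 and 175.0. The astrocyte list, which holds Gfap and Ednrb themselves, summed to 428.4 and 688.3. Of its 7 measurable genes 6 were lower in KO members, with a median log2 ratio of -0.79. Its defining gene Pax2 was at 0 in members of every library but had reads in the other Müller barcodes of each. Without barcodes with cone markers the gliosis median was -0.15, and without the 8 KO Müller barcodes that had at least 3 pericyte reads it was -0.28. The ratios of single genes were also taken without barcodes holding markers of rods, cones, amacrine cells, endothelial cells, mural cells or microglia. This left 375 members and 86 others, not screened for astrocyte markers, which 155 of all 1130 KO members held. Lcn2 was then at 0.084, Gfap at 0.228 and Hspb1 at 0.186, and Adm at 2.77, Apln at 2.39 and Vegfa at 1.84. But Timp1 was at 0.778, and Fn1 at 118 against 78.7 CPM. Edn2 was at only 0.545 against 0.971 CPM (ratio 0.561, 0.021 to 110), so most of its reads lay in the barcodes left out. Without barcodes with pericyte or endothelial reads (5 others and 12 members) Gfap was at 205.1 against 299.1 CPM, a ratio of 0.686, and Ednrb at 0.561, so neither met the 2-fold call. The part of the other reads in the remaining differences was not tested.

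The other genes called lower included transcription factor genes and small carriers. Zic1 and Zic2, zinc-finger genes of the neural plate, were at 7.15 against 32.7 CPM and 4.35 against 16.5. Fabp5 and Fabp7, which encode fatty acid-binding proteins, were at 7.92 against 30.8 and 2.86 against 9.32. Without cone-marked barcodes Fabp7 was at only 0.532 against 0.747 CPM (ratio 0.71, 0.127 to 6.54), so most of its reads lay in those barcodes. Dio3os, antisense to the deiodinase gene Dio3, was at 6.64 against 29.2, and because no label says whether counting used strand, its reads cannot be told from those of its neighbour. Abi3bp (4.06 against 15.8), Fam167a (1.86 against 7.57), Ptpru (ratio 0.299), Ddr2, a collagen receptor gene (4.63 against 14.7), and Nexmif (2.37 against 7.41) followed. Riiad1 (4.29 against 14.0) belongs to the order but turned to a log2 ratio of 0.47 when cone-marked barcodes were left out.

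The KO members were not uniform, and several of the genes above changed gradually along Ndufa4l2. From KO Müller barcodes under 100 CPM of Ndufa4l2 (146 barcodes) to those at 2000 or more (484 barcodes), Vegfa went from 204.1 to 534.3 CPM, Adm from 43.3 to 216.0 and Apln from 47.0 to 188.4. Within the members, from 500 to 1000 CPM (257 barcodes) through 1000 to 2000 (389 barcodes) to the top band, Adm was 78.9, 129.2 and 216.0 CPM, Apln 91.0, 113.9 and 188.4, and Vegfa 398.9, 445.3 and 534.3. Fam162a was 516.2, 681.1 and 1000 CPM over the same 3 bands and Cox4i2 1034, 1270 and 1590. Ndufa4 was lower toward the top band, at 842.1, 736.4 and 532.5 CPM, as was Gfap (267.1, 211.0 and 157.4) and Edn2 (7.22, 5.07 and 3.14). Glul, by contrast, was highest in the top band, at 5853, 6604 and 7832 CPM. The sum of cone markers was 3401, 2755 and 737 CPM and that of rod markers 13578.5, 9988 and 6005, so the bands also differ in what other cells contributed, and median depth was 30316, 29061 and 27052 reads.

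**Figure D3:**
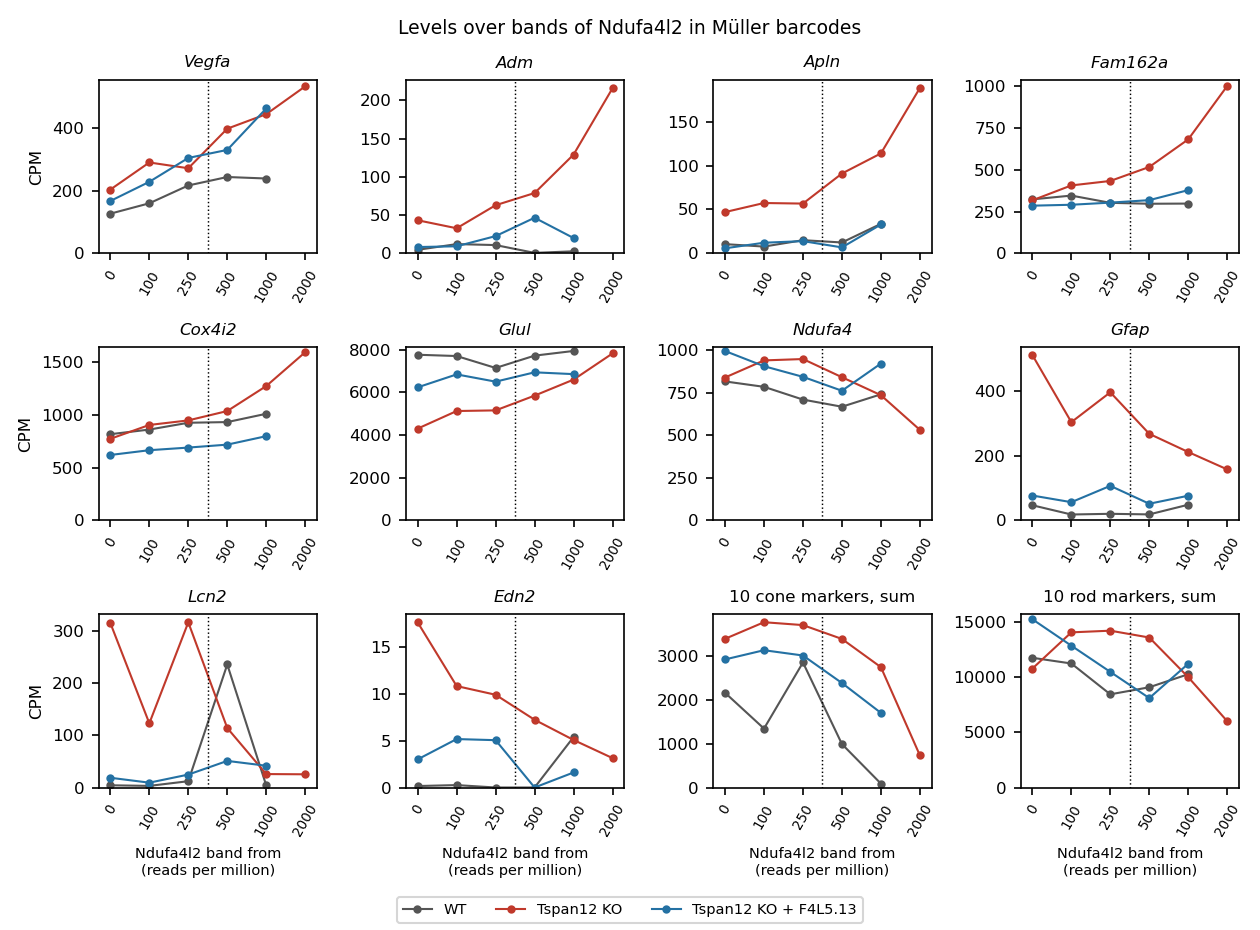
CPM (y axes, linear from 0) of 10 genes and of the summed cone and rod markers over 6 bands of Ndufa4l2 (x axes, lower bound of the band in CPM), 1 line for each library, members to the right of the dotted line; bands under 20 barcodes are left out, which removes the top band of WT and treated. In KO, Adm, Apln and Fam162a are highest in the top band, Gfap and Edn2 in the lowest, and Vegfa is higher in high bands in all 3 libraries.

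Whether a WT or treated Müller barcode with high Ndufa4l2 resembled a KO one was examined gene by gene. Vegfa did: its ratio was 1.79 in WT (243.6 against 136.1 CPM), 1.87 in KO and 1.99 in treated (387.2 against 194.5 CPM). Nxph4, which encodes the secreted neurexophilin 4, had ratios of 2.03 (25.7 against 12.7 CPM), 2.08 (68.7 against 33.1) and 2.24 (38.6 against 17.2), and Hsd17b2, a steroid dehydrogenase gene, 2.16, 1.63 and 2.10. Adm in treated members was at 35.7 against 10.2 CPM, a ratio of 3.51 (2.36 to 5.11) beside 3.06 in KO. In WT it was at 1.24 CPM in members, from reads in 2 barcodes, against 5.79 in the others, with an interval of the ratio from 0.0071 to 1.15. Apln was at 18.6 against 10.5 CPM in WT and at 16.2 against 7.80 in treated. Fam162a was at 297.0 against 323.6 CPM in WT and 357.4 against 288.0 in treated. Cox4i2 had ratios of 1.17 and 1.19 and Ndufa4 of 0.84 and 0.85 in WT and treated.

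In the WT library 14 of 10356 genes (0.135%) were called higher in members and 32 (0.309%) lower, and in the treated library 3 of 10179 (0.0295%) and 13 (0.128%). No gene was called in the same direction in all 3 libraries. Of the 21 genes called higher in KO, 8 were measurable in WT and 4 of them lay above 1 there, against 41.5% of all genes, and 13 were measurable in treated with 8 above 1, against 42.9%. Of the 56 called lower, 8 of 24 were below 1 in WT (58.5% of all genes) and 14 of 28 in treated (57.1%). Among genes eligible for naming, the largest ratio upward in WT members was that of Tagln2, an actin-binding protein gene (104.0 against 36.6 CPM). Then came Atf3, a stress transcription factor gene (260.6 against 99.9), and Ier3, an immediate-early gene (888.1 against 351.7). Ifitm3, an antiviral membrane protein gene (379.0 against 156.3), Vit (39.8 against 17.6) and Ahnak (65.5 against 29.1) followed. For each of these, 5 barcodes held 26.3 to 49.4% of the reads in members. With members at 500 to 1000 CPM, 2 genes were called higher in WT. WT members were lowest against the others in Lynx1 (0.414 against 9.49 CPM), Sphkap (3.31 against 29.4), Trhde (0.829 against 9.93), Thsd7a (1.24 against 12.3), C1ql3 (1.24 against 11.4) and Rskr (2.07 against 15.4), each resting on at most 8 reads in members. Cone markers summed to 691.8 CPM in WT members and 2129 in the other WT Müller barcodes, with 9 of 10 called lower, and without cone-marked barcodes 9 genes were called lower in WT. In treated members Nxph4 and Hsd17b2 were higher, and Agr2 (0.590 against 9.91), Arid3b (4.72 against 22.1), Pelp1 (2.65 against 13.2), Glp2r (4.72 against 18.3), Tff2 (4.42 against 17.1) and Samd7 (ratio 0.272) were lower.

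The gliosis list differed in sign between the libraries. Its median log2 ratio was 0.46 in WT, with 17 of 19 measurable genes above the other Müller barcodes, and 0.25 in treated, with 16 of 21 above, against -0.46 in KO. Cp, which encodes ceruloplasmin, was at 934.9 against 676.2 CPM in WT, 776.4 against 1165 in KO and 919.8 against 773.9 in treated. Hspb1 was at 28.6 against 13.4, 11.7 against 31.2, and 19.5 against 12.2. Gfap had CPM ratios of 0.65, 0.49 and 0.77, and 5 barcodes held 71.0% of its reads in the higher WT set. A read of Gfap was seen in 14.7% of WT members and 5.33% of the others, in 47.5% and 55.6% in KO, and in 27.6% and 19.4% in treated. Lcn2 in WT members, at 158.6 CPM against 4.61, came from 4 barcodes and was not called, and 5 barcodes held 84.1% of the Hspb1 reads of WT members. Vascular markers moved with the list in WT, where 11 of 12 mural and 11 of 12 endothelial markers were higher in members, and their part was not tested. The difference between libraries was not tested, and the other Müller barcodes it is measured against were themselves unlike: their Gfap was 42.2 CPM in WT, 419.0 in KO and 77.1 in treated.

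Immediate-early and AP-1 genes, which cells switch on quickly after stimuli that include tissue handling, were above the other Müller barcodes in every library. This held for 16 of 16 measurable genes in WT (median log2 ratio 0.36), 16 of 16 in KO (0.24) and 15 of 16 in treated (0.28). The KO median was 0.045 with members at 500 to 1000 CPM and 0.18 without barcodes holding markers of another type. It was 0.33 with members from 1000 CPM and 0.32 with 10000 to 50000 reads. The treated median was 0.19 without cone-marked barcodes. All 10 rod and all 10 cone markers were lower in members of every library, and their part was not tested. Jun was at 4772 against 3758 CPM in WT, 4454 against 3516 in KO and 4805 against 4172 in treated, and Maff had ratios of 1.62, 1.69 and 1.65. Glycolysis genes likewise lay above in all 3, in 13 of 19 (0.18), 21 of 26 (0.21) and 16 of 20 (0.16), and nuclear oxidative phosphorylation genes below, in 20, 20 and 19 of 25. The interferon list lay above in 14 of 14 measurable genes in WT (0.50) but was mixed in KO (11 above, 7 below) and treated (10 above, 6 below). These are small shifts over whole lists with 1 gene called in WT in each of the immediate-early and interferon lists, Ier3 and Ifitm3.

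**Figure D4:**
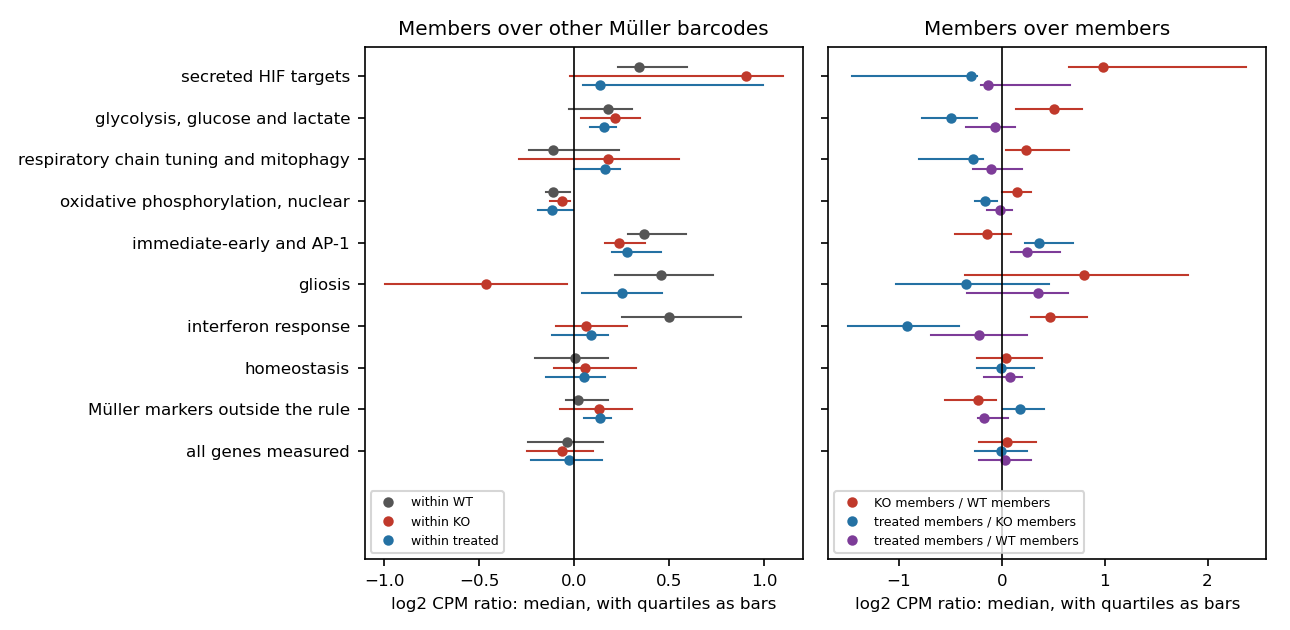
Median log2 CPM ratio (x axes, points) with quartiles (bars) for 9 gene lists and all measurable genes (y axis), on the left for members over the other Müller barcodes of the same library and on the right for members of a library over members of another. Gliosis is at 0.46, -0.46 and 0.25 for WT, KO and treated on the left, and the interferon list at -0.92 for treated over KO on the right.

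Between libraries, KO members carried more of the vascular factors than WT members. Adm was at 149.3 CPM against 1.24, which rests on 3 reads in WT and gives a ratio of 120 (23 to 3573). Apln was at 136.5 against 18.6 (ratio 7.32, 4.53 to 12.7) and Vegfa at 467.3 against 243.6 (1.92, 1.67 to 2.21). Of 10062 genes, 170 (1.69%) were called higher and 76 (0.755%) lower in KO members. The glycolysis median was 0.51 with 18 of 23 genes above and 2 called, Hk2 (118.2 against 51.0 CPM) and the lactate exporter gene Slc16a3 (23.7 against 6.63). Fam162a was at 760.3 against 297.0 and Bnip3 at 59.4 against 31.5. The other KO and WT Müller barcodes, which are below the Ndufa4l2 level, differed in Adm too (48.8 against 5.79 CPM) and in Apln (53.1 against 10.5), so higher Adm and Apln in KO was not limited to members.

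Gliosis separated KO from WT members by gene and not as a block. Of 23 measurable genes, 10 were called higher in KO members and 2 lower, against 1.69% and 0.755% of all genes, with a median log2 ratio of 0.80. Called higher were Gfap (205.1 against 27.3 CPM), C4b, a complement gene (122.8 against 19.5), S100a6 (989.4 against 246.9), Serpina3n (63.7 against 15.7), A2m, Timp1, Fgf2, Osmr, Cd44 and Anxa2. Called lower were Anxa1 (96.4 against 249.8) and Ednrb (9.76 against 38.9). Interferon genes were above in 16 of 17, led by Ifit1 (68.2 against 17.4) and B2m (124.4 against 58.8), both called. Among the lowest ratios were those of Prss56, a serine protease gene (39.5 against 350.4), and Plac9a (33.3 against 240.7), followed by Dio3os, Zic1 and Lpar1 (13.9 against 62.1). After Adm, the largest ratios upward were in genes better known from neurons, among them Ache, acetylcholinesterase, Camkv and Ina, a neuronal intermediate filament gene. All had 0 reads in WT members, so only the lower interval bound of the ratio is given, 2.37 for Ache and 2.02 for Camkv and for Ina. Ghrh, also at 0 reads in WT members, had a lower bound of 1.93, and Ly6h was at 16.9 against 0.414 CPM. Ache and Ly6h were as high in the other KO Müller barcodes (9.40 and 20.4 CPM) as in the members (10.0 and 16.9). Reads of other neurons differed between the member sets as well: cone markers summed to 691.8 CPM in WT, 2150 in KO and 2084 in treated members and amacrine markers to 676.0, 766.7 and 605.2. The amacrine sum is mostly Pax6, which Müller glia also express. Over the measurable amacrine markers the median log2 ratio was 3.37 for KO over WT members, with 3 of 5 called higher, and -3.06 for treated over KO members, with 4 of 6 called lower. Gad1, an enzyme gene of GABA synthesis, was at 2.07, 12.7 and 1.77 CPM, Slc32a1, the vesicular GABA transporter gene, at 0.414, 13.9 and 0.590, and Snhg11 at 7.04, 78.6 and 2.65 in WT, KO and treated members. The part of these reads in the differences of Ache, Camkv, Ina and Ly6h, and below of Syt7, Vsnl1 and Myt1l, was not tested.

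Treated members, picked at the same Ndufa4l2 level, had less of most of these transcripts than KO members. Of 10107 genes 72 (0.712%) were called higher and 118 (1.17%) lower. Adm was at 35.7 against 149.3 CPM (ratio 0.239, 0.169 to 0.329) and Apln at 16.2 against 136.5 (0.119, 0.070 to 0.190), both called, whereas Vegfa was at 387.2 against 467.3 (0.83, 0.75 to 0.92). All 7 measurable secreted HIF targets lay below. Glycolysis genes lay below in 21 of 24 with a median of -0.50, and Eno1 (1074 against 2421 CPM) was called. Bnip3 (26.2 against 59.4) and Fam162a (357.4 against 760.3) were called lower, and Cox4i2 was at 755.8 against 1331. Interferon genes were lower in 14 of 17 with a median of -0.92, and 7 were called against 1.17% of all genes: Ifit1, Ifit3, Isg15 (26.8 against 94.4), Rtp4, Irf7, Bst2 and Oasl2. Since KO members reach higher Ndufa4l2, the same comparison was made over members at 500 to 1000 CPM, an alternative chosen after the data were seen, in which Adm was 46.6 against 78.9 CPM, Apln 6.80 against 91.0 and Vegfa 331.0 against 398.9.

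Gliosis genes in treated members split. Gfap (59.6 against 205.1 CPM), Serpina3n (24.8 against 63.7), Timp1, A2m, Anxa2 and S100a6 (477.8 against 989.4) were called lower, Socs3, a feedback inhibitor of cytokine signalling (1418 against 489.8), and Anxa1 (197.3 against 96.4) were called higher, and the median over 23 genes was -0.35. The highest ratio of treated over KO members was that of Hopx, a homeodomain-only protein gene, at 636.7 against 100.9 CPM (ratio 6.31, 5.74 to 6.93), with reads in all 123 treated members. Hopx was at 533.3 CPM in the other treated Müller barcodes and was 189.7 CPM in WT members. H1f10, a linker histone gene (56.6 against 11.2), Klf2, a transcription factor gene (235.3 against 48.4), Spry1, an inhibitor of growth factor signalling (124.5 against 25.7), and Plac9a (143.3 against 33.3) followed. The lowest ratio was that of Cxcl10, an interferon-induced chemokine gene, at 0.885 against 43.6 CPM, whose KO reads lay in 52 members. Syt7 was at 0.295 against 11.2. Clec2l, Slc8a1, Vsnl1 and Myt1l had 0 reads in treated members, and the upper interval bounds of their ratios were 0.463, 0.507, 0.512 and 0.559.

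**Figure D5:**
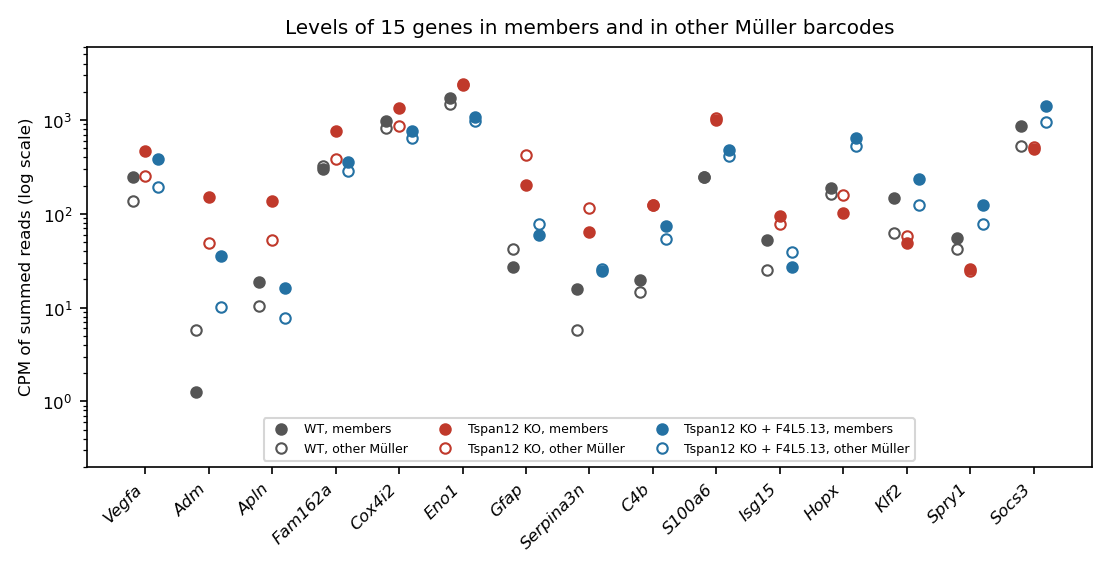
CPM of summed reads (y axis, log scale) for 15 genes (x axis) in members (filled points) and in the other Müller barcodes (open points) of the WT, KO and treated libraries; each point is 1 set of barcodes of 1 library, so there is no error bar between animals. Adm and Apln are highest in KO members at 149.3 and 136.5 CPM, and Hopx is highest in both treated sets at 636.7 and 533.3 CPM.

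Between treated and WT members 17 of 5457 genes (0.312%) were called higher and 9 (0.165%) lower in treated, with fewer genes tested because both sets are small. Hopx (636.7 against 189.7 CPM), C4b (73.4 against 19.5), Cyp26a1, which degrades retinoic acid (56.0 against 17.4), Mafk (56.3 against 18.6), Klhl18 (44.2 against 15.3) and Mir124a-1hg (126.8 against 49.3) were the highest. Olfr77 (25.1 against 67.1), Lpar1 (23.3 against 62.1), Ifi27 (39.5 against 97.8) and Prss56 (146.6 against 350.4) were among the lowest. The 3 comparisons between libraries share their member sets pairwise and are not independent of each other.

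Markers of vascular cells were looked for in the members because pericytes also carry Ndufa4l2. WT members had 613.1 CPM summed over 12 mural markers against 352.1 in the other WT Müller barcodes, with 11 of 12 higher, and treated members 453.9 against 386.4, while KO members had 269.3 against 408.1 with Kcnj8 and Higd1b at 0. In WT members Rgs5 stood at 167.3 CPM but its reads lay in 3 barcodes, and the endothelial gene Cldn5 at 131.7 CPM lay in 5. Only 2 WT, 5 KO and 2 treated members had at least 3 reads over 5 pericyte genes. Without them the shares of members were 5.82%, 75.6% and 9.77%.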

How the data were processed

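Retinal cells were profiled as 3 single-cell libraries (10x Genomics, per the labels), 1 for each group. The authors' deposited tables hold estimated counts for 24071 genes in each barcode, which were rounded to whole numbers. The submitters' processing notes name mm10 and Partek 9.0, and give no step that merges reads of 1 molecule. The values looked like unmerged reads, so a divisor per library, the sum of squared values over the sum of values in genes seen in 5 to 50 barcodes (values up to 10), gave molecule equivalents for intervals and minimums. The plan had no test, since each group has 1 library.

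Barcodes with at least 500 genes and at most 20% mitochondrial reads were kept. Müller barcodes had at least 3 reads in at least 5 of Rlbp1, Slc1a3, Aqp4, Kcnj10, Car14, Crym, Gpr37 and Abca8a and fewer than 5 reads of Trpm1 and Grm6, and members had Ndufa4l2 at 500 CPM or more. No doublet caller was run. Barcodes with markers of another type (at least 3 reads in at least 3 markers) were left out in an alternative. The types searched there were rod, cone, amacrine, endothelial, mural and microglia, so astrocyte, horizontal, bipolar and ganglion markers were not screened. Reads were summed per set and compared as CPM ratios with exact conditional binomial 95% intervals; comparisons needed 50 barcodes in each set. The call rule is in the text; the 12 highest and 12 lowest called genes were named within KO and 6 of each elsewhere, leaving out mitochondrial, ribosomal, haemoglobin and crystallin genes, Xist, Tsix and Y-linked genes, other-type markers and unnamed genes. log2 ratios used a prior count of 0.5. The limit on list genes (10 expected molecule equivalents in the smaller set) was set after the data were seen. The members and lists were chosen with earlier results of these data known. A few genes that the rule names are not reported here. The code was tested on simulated data. Python 3.11.15, numpy 2.4.6, scipy 1.17.1, pandas 2.3.3 and matplotlib 3.10.9 were used.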

Additional observations from a re-analysis of the deposited data

Results flagged for a closer look

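The gliosis list is given again because its direction turned between libraries: the median log2 ratio of members over the other Müller barcodes was 0.46 in WT, -0.46 in KO and 0.25 in treated. The difference was not tested, and cone, rod and microglial reads moved with it in KO as described above.

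Necab2, the gene of a neuronal calcium-binding protein, was called higher in WT members (ratio 2.05, 230.3 against 112.2 CPM) and lower in KO members (ratio 0.394, 86.4 against 219.2 CPM), and the difference between libraries was not tested.

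Barcodes outside the Müller rule also reached 500 CPM of Ndufa4l2: 1.08% in WT (47 barcodes), 2.36% in KO (206 barcodes) and 0.626% in treated (48 barcodes). In WT 43 of the 47 had at least 3 reads in at least 3 of 5 pericyte genes, against 7 of 206 in KO and 13 of 48 in treated. Of the 206 KO barcodes, 50 met the Müller markers but had too many bipolar reads, 19 had 4 markers, 57 had 1 to 3 and 80 had none, at a median of 5771 reads.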

How the results depend on the processing

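Of 295 values recomputed for 29 main results under 16 alternatives, 244 stayed and 51 moved. Shares were held to their counting interval and counts of called genes to 1.5 times the count. List medians were held to the median half-width of the intervals of their single genes. Among these results only list medians could change direction, and none did. None of 26 values moved with the mean of barcode CPM or with scaling without mitochondrial reads and Ndufa4l2. A mitochondrial limit of 10%, markers at 1 read, and thinning to 5000 or 10000 reads were run for the 3 shares only, which stayed within their counting intervals. Of 704 values for 68 named genes, 669 stayed within 1 log2 unit, and without cone-marked barcodes Riiad1 within KO (0.47) and Agr2 within treated (1.98) changed sign. Depth limits the WT and treated members, whose reads sum to 2414121 and 3390886 against 34954535 in KO members, so fewer genes could be called in them.

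With members from 250 CPM the shares were 11.5% (WT), 85.0% (KO) and 19.7% (treated); genes called higher and lower were 22 and 20 within WT, 5 and 7 within treated and 122 and 197 for treated over KO, and genes called lower were 36 within KO and 125 for KO over WT. From 1000 CPM the shares were 2.19%, 58.3% and 3.92%, and within KO the secreted HIF median was 0.65, the immediate-early median 0.33 and genes called lower 183; the WT and treated sets then had fewer than 50 members and were not compared. Without barcodes with markers of another type the shares were 4.68% (WT) and 81.3% (KO), and within KO 6 genes were called higher and 4 lower with an immediate-early median of 0.18; WT and treated comparisons had too few members. With 10000 to 50000 reads, 23 and 21 genes were called within WT, 8 lower within treated, 110 higher for KO over WT and 77 lower for treated over KO, and within KO the gliosis median was -0.26 and the immediate-early median 0.32. A minimum of 10 molecule equivalents called 6 genes higher within treated.

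Alternatives added after the data were seen follow. Without pericyte reads the KO gliosis median was -0.28, and without pericyte or endothelial reads -0.27. Against Müller barcodes under 100 CPM, the KO secreted HIF median was 1.19, with 47 genes called higher in KO and 10 in treated. With members at 500 to 1000 CPM, 2 and 17 genes were called within WT, 4 and 13 within KO and 49 lower for KO over WT; KO medians were 0.67 (secreted HIF), -0.24 (gliosis) and 0.045 (immediate-early), and gliosis for treated over KO was -0.77. Without cone-marked barcodes the KO share was 78.4%, genes called lower were 9 within WT, 34 within KO and 3 within treated with 1 higher, the KO gliosis median was -0.15 and the treated immediate-early median 0.19. No paired analysis was possible because each group has 1 library.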

Other observations

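Of 19 measurable homeostasis genes within KO, 13 lay above and 6 below the other Müller barcodes with none called and a median log2 ratio of 0.06. Slc1a2, a glutamate transporter gene, was at 455.0 CPM in KO members against 444.9 in the others. Lipid and cholesterol genes lay below in WT members in 9 of 12 (median -0.30) in 9 of 15 in KO (-0.20) and in 7 of 13 in treated (-0.03), beside 5211 of 8913, 8211 of 13795 and 5543 of 9713 over all measurable genes. Among direct β-catenin targets, Axin2 was at 11.2, 11.9 and 12.1 CPM in WT, KO and treated members, and Nkd1 at 140.8, 112.2 and 192.6, and Lgr5, a Wnt-responsive receptor gene, was called lower in treated than in KO members (1.47 against 11.2 CPM).

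Across 8822 genes measurable in all libraries, the log2 ratios of members over other Müller barcodes had a Spearman correlation of 0.25 between KO and treated, 0.12 between KO and WT and 0.24 between treated and WT, which is a description across genes that share libraries and depth.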
